A study of Danio rerio with 12 samples.

Results

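The genes described here are those whose level in zebrafish macrophages was raised in every replicate by tail amputation together with the glucocorticoid beclomethasone, and was not raised in every replicate by either treatment alone. They were chosen by measured values. Each gene had to lie more than 1 log2 unit (a doubling) above the Control sample of the same replicate number in Amp+Beclo replicates 1, 2 and 3. Genes that also passed this limit in all 3 Amp replicates, or in all 3 Beclo replicates, were left out. Of 20214 genes measured with a mean count of at least 10 over the 12 samples, 101 met the rule. Levels are read counts scaled to a common sample total (CPM), and differences between samples are log2 CPM differences with 2 counts added. A gene table gave 90 of the 101 a name and left 11 with an identifier alone. Names are written as that table gives them, so that some carry the capitals used for human genes.

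Glucocorticoids bind the glucocorticoid receptor, a transcription factor that raises metabolic and anti-inflammatory genes and represses much of the transcription driven by NF-κB and AP-1. In macrophages, wounding starts such an inflammatory program, with cytokines, sensors of pathogens and enzymes of the oxidative burst. Glucocorticoids leave part of the innate immune machinery of these cells in place, and some receptors for cytokines and bacterial products are known to be raised by hormone and inflammation together. Glucocorticoids are also classic regulators of glycogen, the stored form of glucose.

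The macrophages came from larvae at 3 dpf that carried Tg(mpeg1.4:mCherry-F), in which the macrophage promoter mpeg1 drives a membrane-bound red fluorescent protein, and the cells were sorted by that fluorescence at 4 hpa from pools of larvae. Amp+Beclo larvae had the tail cut and received 25 µM beclomethasone, Amp larvae had the tail cut and received 0.05% DMSO as vehicle, Beclo larvae were left uncut and received 25 µM beclomethasone, and Control larvae were left uncut and received 0.05% DMSO. Drug or vehicle was given from 2 h before amputation. Each group had 3 samples, numbered by 3 replicate experiments, and the same 3 Control samples served all the comparisons with Control. Each value is an average over a pool of sorted cells, so that more RNA per cell and more cells of a kind that carries the RNA cannot be told apart.

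The samples held between 9488569 and 18865019 reads on genes. Amp replicates 2 and 3 had TMM scaling factors of 0.79 and 0.75, against 0.94 to 1.14 in the other samples, and the median of all genes for the mean of Amp minus Control was -0.11 log2 units. All 10 measured genes of a skeletal muscle list (9 of its 18 symbols) had reads in every sample, and their summed level was 19622 to 55383 CPM in Amp+Beclo, 31716 to 113467 CPM in Amp, 30581 to 39432 CPM in Beclo and 13381 to 50931 CPM in Control. A macrophage list (15 genes under 10 of its 15 symbols), also without a zero, summed to 3399 to 13229 CPM in Amp+Beclo, 5626 to 23440 CPM in Amp, 7561 to 12630 CPM in Beclo and 3722 to 13912 CPM in Control. In Amp+Beclo an epidermis list (17 genes) summed to 9760 to 19398 CPM, and in Control to 8179 to 19509 CPM. In Amp it was 8354 to 36094 CPM and in Beclo 14002 to 23502 CPM. A connective tissue and cartilage list (7 genes) summed to 5158 to 8400 CPM in Amp+Beclo and 4365 to 14907 CPM in Control. The markers of the labelled cell type were thus present in every sample, together with RNA of other tissues, among them muscle, epidermis and connective tissue. The part of that RNA in the results was not tested.

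The rule is less strict than the phrase "raised only by wound plus drug". Only vwa11 and CAPN3 stayed under the limit in all 3 Amp and all 3 Beclo replicates. Of the 101 genes, 72 passed the limit in 2 of the 3 replicates of Amp or of Beclo and thus missed exclusion by 1 sample. In Beclo, 53 genes passed in 2 replicates, 37 in 1 and 11 in none. In Amp, 34 passed in 2 replicates, 29 in 1 and 38 in none. The replicate that missed the limit was not always the same: among the 53 genes it was Beclo replicate 1 for 19, replicate 2 for 17 and replicate 3 for 17, and among the 34 it was Amp replicate 1 for 12, replicate 2 for 8 and replicate 3 for 14. The genes are therefore called here by their rule, as genes raised in every Amp+Beclo replicate and not in every replicate of either treatment alone.

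**Figure D1:**
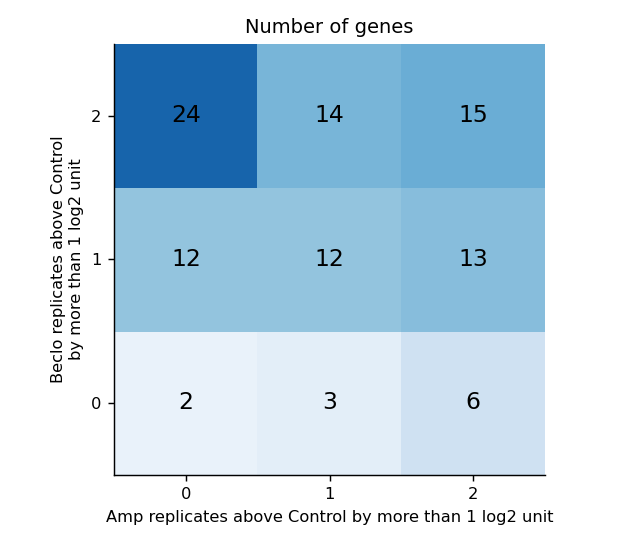
Number of the 101 genes by how many Amp replicates (horizontal axis) and how many Beclo replicates (vertical axis) lay more than 1 log2 unit above the Control sample of the same number. The cell for 0 Amp and 2 Beclo replicates holds 24 genes, more than any other cell, and the cell for 0 and 0 holds 2.

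The mean of the 3 differences gave the same picture. Amp+Beclo minus Control had a median of 1.72 log2 units over the 101 genes, with a range of 1.08 to 3.47. For the same genes Amp minus Control had a median of 0.68, with a range of -1.13 to 3.32, and Beclo minus Control a median of 1.05, with a range of -0.75 to 2.73. Over all measured genes the medians were 0.00 for Amp+Beclo, -0.11 for Amp and -0.03 for Beclo. The mean of Beclo minus Control was above 1 in 54 genes, that of Amp minus Control in 31, both in 9 and neither in 25. Beclo had the larger single change in 65 genes and Amp in 36. The mean of Amp minus Control was below 0 in 25 genes and that of Beclo minus Control in 8.

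**Figure D2:**
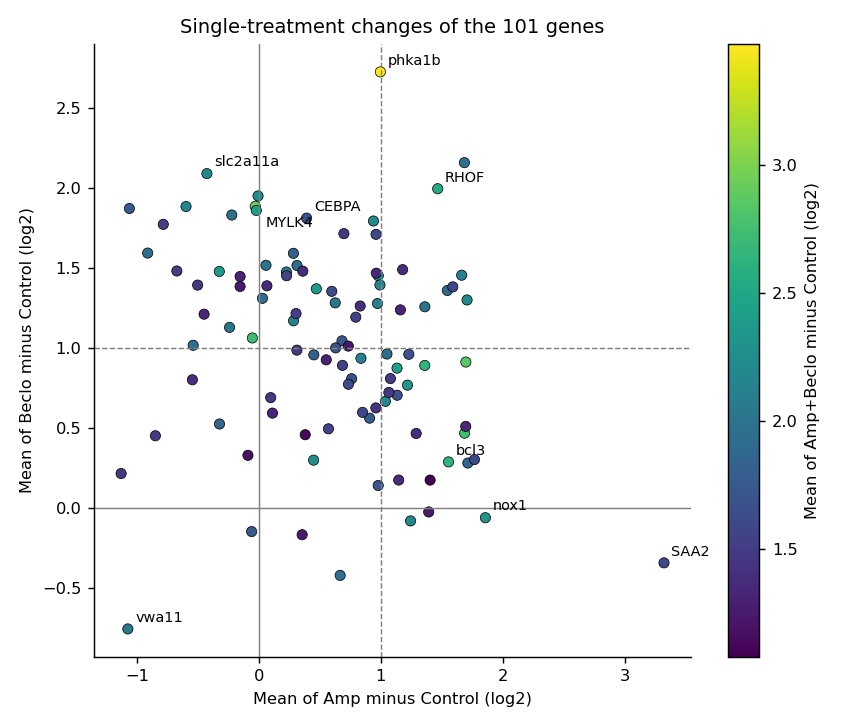
Mean of Amp minus Control (horizontal axis, log2 units) against mean of Beclo minus Control (vertical axis, log2 units) for the 101 genes, with colour giving the mean of Amp+Beclo minus Control and dashed lines at 1. Most genes lie above or to the right of a dashed line, 54 above 1 in Beclo and 31 above 1 in Amp, while vwa11 lies below 0 on both axes.

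The combined change was also set beside the sum of the single changes. The rule chose the genes on these same values, so this is a description and nothing is read from it. Amp+Beclo minus Control, less the sum of Amp minus Control and Beclo minus Control in the same replicate, had a median of 0.11 log2 units over the genes' means, against 0.16 over all measured genes. It was above 0 in all 3 replicates in 24 genes, against 28.5% of all measured genes, and below 0 in all 3 in 8, against 22.7%. Amp+Beclo lay above Amp in all 3 replicates in 68 genes (18.9% of all measured genes), above Beclo in all 3 in 52 (17.4%) and above both in 36 (5.92%). The rule favours high Amp+Beclo values, so nothing is read from these counts. In 18 genes all 3 Amp+Beclo samples lay above all 9 other samples, against 132 of all measured genes (0.653%), a count that the rule raises and from which nothing is read. They were C1QL2, si:ch73-90p23.1, bcl3, ifngr1, lifrb, ENSDARG00000059741, si:dkey-3k24.8, tlr5b, vwa11, OXER1, DAB2, STC2, il1fma, SIK2, fam169ab, si:ch211-171h4.5, SLCO2A1 and 1 gene with no name.

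Among the named genes, 59 were placed in groups by what they are known to do. These groups were formed after the values were seen, and they serve only to order the description. Glycogen metabolism held 6 genes, among them the gene with the largest change. This gene, phka1b (ENSDARG00000105039), a regulatory subunit of phosphorylase kinase that switches on glycogen breakdown, had 4.19, 16.8 and 28.8 CPM in Amp+Beclo, 1.59, 1.28 and 4.77 CPM in Amp, 5.55, 16.3 and 4.63 CPM in Beclo and 0.797, 0.258 and 3.75 CPM in Control. Its mean of Amp+Beclo minus Control was 3.47 ± 1.66 log2 units (SD, n = 3), the largest of the 101, and its mean of Beclo minus Control was 2.73 ± 2.51. Control replicate 3 was nearly as high as the lowest Amp+Beclo sample, though no Control sample reached it. Amp replicate 3 lay above that Amp+Beclo sample, and Beclo replicate 2 was nearly as high as Amp+Beclo replicate 2. Amp+Beclo thus overlapped with Amp and with Beclo.

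The catalytic subunit of the same kinase was present under 2 identifiers with the name PHKG1. The more abundant one (ENSDARG00000030604) had 78.2, 73.3 and 74.0 CPM in Amp+Beclo, 29.5, 29.3 and 11.7 CPM in Amp, 60.2, 85.6 and 63.8 CPM in Beclo and 33.97, 31.9 and 24.1 CPM in Control. Here Amp+Beclo and Beclo overlapped and lay above all Amp and Control samples. The other copy (ENSDARG00000069498) had 9.34, 18.4 and 24.8 CPM in Amp+Beclo, 11.7, 5.91 and 3.43 CPM in Amp, 4.99, 18.4 and 7.63 CPM in Beclo and 4.36, 3.61 and 5.78 CPM in Control. The sequences of the 2 were not compared, so whether reads were divided between them is not known and the split is uncertain.

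The paralogs ppp1r3aa and ppp1r3ab encode targeting subunits that bring protein phosphatase 1 to glycogen, where it favours synthesis. The ppp1r3ab gene (ENSDARG00000088813) had 4.67, 13.4 and 26.3 CPM in Amp+Beclo, 3.17, 0.812 and 1.47 CPM in Amp, 2.39, 13.7 and 1.36 CPM in Beclo and 1.87, 0.859 and 2.69 CPM in Control. Its paralog ppp1r3aa followed with 2.90, 8.75 and 12.6 CPM in Amp+Beclo, 3.46, 1.28 and 1.22 CPM in Amp, 2.81, 8.38 and 1.64 CPM in Beclo and 1.08, 1.12 and 2.36 CPM in Control. In phka1b, ppp1r3aa, ppp1r3ab and the less abundant PHKG1, Beclo replicate 2 stood well above Beclo replicates 1 and 3, and Amp+Beclo replicate 1 was the lowest of its group. The phosphorylase PYGB, which releases glucose units from glycogen, was a different case, with 231, 381 and 256 CPM in Amp+Beclo, 191, 379 and 102 CPM in Amp, 163, 137 and 137 CPM in Beclo and 82.3, 126 and 67.8 CPM in Control. For PYGB the larger single change was that of Amp (1.13 ± 0.51 log2 units), against 0.71 ± 0.50 for Beclo (SD, n = 3 each). The part of muscle RNA in the values of the glycogen genes was not tested.

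**Figure D3:**
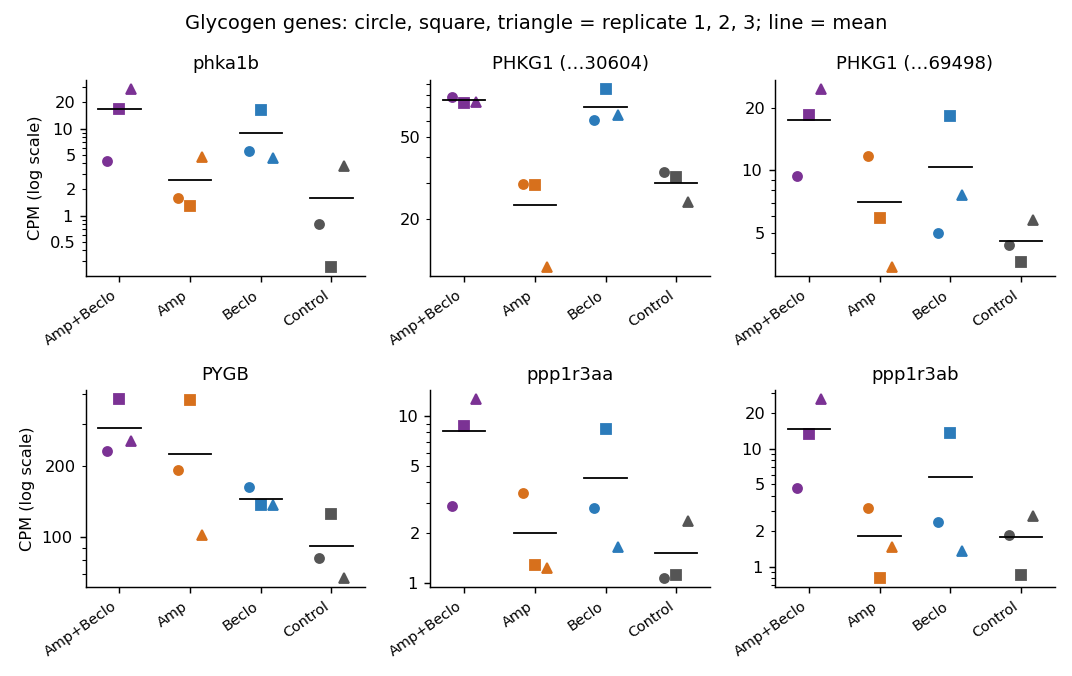
CPM on a log scale of the 6 glycogen genes in the 12 samples, grouped as Amp+Beclo, Amp, Beclo and Control, with symbols for replicates 1, 2 and 3 and a line at each group's mean. In phka1b, ppp1r3aa and ppp1r3ab the highest Amp+Beclo samples (28.8, 12.6 and 26.3 CPM) lie above every Control sample and Beclo replicate 2 lies far above the other Beclo samples, while in the first PHKG1 the 3 Amp samples (11.7 to 29.5 CPM) lie below every Amp+Beclo and Beclo sample.

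A wider list of glycogen genes, drawn up after these 6 had been seen, held 37 measured genes. Their median mean change was small, at 0.20 log2 units for Amp+Beclo, 0.05 for Amp and 0.23 for Beclo. The limit was passed in every Amp+Beclo replicate by 7 of them, 6 of these being members, against 1.06% of all measured genes. It was passed in every Amp replicate by 0 (0.579%) and in every Beclo replicate by 2 (0.841%). Outside the 101 genes, ppp1r3c2a, of the same family of targeting subunits, had the largest mean of Amp+Beclo minus Control, 2.07 log2 units, and 2.06 for Beclo, and it passed the limit in every replicate of both. The mean for Amp+Beclo was 1.58 for GYS1 (glycogen synthase) and 1.45 for EPM2A (laforin, a glycogen phosphatase). Their means were 1.41 and 1.15 in Beclo alone, and 0.42 and 0.53 in Amp alone. UGP2, which makes the glucose donor of glycogen synthesis, stood under 2 identifiers: the scarce copy (ENSDARG00000005578, 3.16 CPM on average in Control) had a mean of 1.68 and the abundant copy (ENSDARG00000008200, 124 CPM in Control) a mean of 0.18. The mean was below 0 in 14 of the 37 genes, among them GYS2 at -0.93 and 1 of 2 copies of PPP1R3C (ENSDARG00000071005) at -1.05. The mean was above 1 for 12 of the 37 genes in Amp+Beclo, 3 in Amp and 7 in Beclo. The 37 include the 6 members, and the share of all measured genes with a mean above 1 was not computed. Nothing is read from these counts.

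Cytokines and their receptors gave 6 genes, with a median of 2.11 log2 units for Amp+Beclo, 0.94 for Amp and 1.09 for Beclo. The interferon gamma receptor gene ifngr1 (ENSDARG00000074771) had 40.4, 30.6 and 31.96 CPM in Amp+Beclo, 21.4, 16.1 and 7.83 CPM in Amp, 6.89, 15.2 and 15.1 CPM in Beclo and 4.97, 10.5 and 4.73 CPM in Control. All 3 Amp+Beclo samples lay above all others, and the means of the differences were 2.41 ± 0.77 for Amp+Beclo, 1.13 ± 0.82 for Amp and 0.88 ± 0.66 for Beclo (log2 units, SD, n = 3 each). The receptor gene lifrb, which encodes a receptor for the leukaemia inhibitory factor family, had 59.9, 42.6 and 38.6 CPM in Amp+Beclo, 32.4, 19.6 and 10.6 CPM in Amp, 16.9, 37.9 and 28.6 CPM in Beclo and 8.81, 11.2 and 8.72 CPM in Control. Every Amp and Beclo sample of lifrb lay above the Control sample of its own number, and of these only Amp replicate 3 lay within the Control range.

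The related oncostatin M receptor gene osmr was low throughout, at 1.77, 3.44 and 1.55 CPM in Amp+Beclo, 0.907, 0.464 and 0 CPM in Amp, 0.773, 0.838 and 1.82 CPM in Beclo and 0.703, 0.343 and 0.244 CPM in Control. An interleukin 1 family cytokine of zebrafish, il1fma, had 60.7, 66.5 and 41.0 CPM in Amp+Beclo, 40.1, 31.8 and 14.7 CPM in Amp, 33.0, 40.7 and 29.99 CPM in Beclo and 26.2, 25.8 and 6.599 CPM in Control. The Amp+Beclo samples of il1fma were the 3 highest of the 12, by a small margin over Beclo replicate 2 and Amp replicate 1. The remaining members of the group were tnfsf11, which encodes the osteoclast-forming cytokine RANKL, with mean changes of 1.77 log2 units in Amp+Beclo, 0.91 in Amp and 0.56 in Beclo, and the chemokine gene ccl38a.5, which had at most 2.26 CPM in any sample.

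Pathogen sensing and inflammatory signalling gave 6 genes, and here Amp was the larger single change, with a median of 1.28 log2 units against 0.70 for Beclo and 1.53 for Amp+Beclo. The mean of Amp minus Control was above 1 in all 6. A list of innate receptors and sensors, with tlr5b among its 14 measured genes, differed from this group. Its median mean change was -1.36 log2 units for Amp, -0.19 for Amp+Beclo and 0.12 for Beclo. The flagellin receptor gene tlr5b (ENSDARG00000052322) had 80.9, 111 and 87.0 CPM in Amp+Beclo, 58.7, 67.4 and 18.2 CPM in Amp, 19.5, 41.6 and 41.2 CPM in Beclo and 22.8, 37.2 and 9.70 CPM in Control. The NF-κB cofactor gene bcl3 (ENSDARG00000087832) had 12.4, 16.9 and 16.1 CPM in Amp+Beclo, 7.14, 8.23 and 5.997 CPM in Amp, 1.55, 2.68 and 5.45 CPM in Beclo and 1.03, 4.64 and 2.44 CPM in Control. In both genes the 3 Amp+Beclo samples lay above all 9 others. For bcl3 every Amp sample also lay above every Beclo and Control sample.

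In the other 4 genes of this group Amp+Beclo overlapped with Amp. The gene for BIRC2, an inhibitor of apoptosis that acts in TNF receptor signalling, had 173, 184 and 157 CPM in Amp+Beclo, 94.5, 203 and 179 CPM in Amp, 150, 139 and 194 CPM in Beclo and 59.8, 81.8 and 62.4 CPM in Control, so that all 3 treated groups overlapped and lay above Control. FES, a tyrosine kinase of myeloid cells, had mean changes of 1.24 log2 units in Amp+Beclo, 1.39 in Amp and -0.02 in Beclo. The stress kinase gene MAPK12 had 1.59 in Amp+Beclo, 1.59 in Amp and 1.38 in Beclo, and tank, which acts between TRAF proteins and their kinases, had 1.47 in Amp+Beclo, 1.07 in Amp and 0.72 in Beclo.

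Host defence effectors gave 8 genes, with medians of 1.89 log2 units for Amp+Beclo, 1.19 for Amp and 0.87 for Beclo. The complement factor B-like gene cfbl had 61.1, 108 and 81.3 CPM in Amp+Beclo, 27.4, 73.9 and 18.5 CPM in Amp, 18.7, 55.5 and 44.6 CPM in Beclo and 18.7, 33.2 and 10.4 CPM in Control. Replicate 2 was the highest of each group in cfbl. The terminal complement gene c7b followed Amp instead, with 21.2, 29.0 and 21.2 CPM in Amp+Beclo, 15.7, 12.9 and 46.3 CPM in Amp, 9.20, 6.12 and 8.18 CPM in Beclo and 5.11, 7.30 and 6.76 CPM in Control. FGL2, a fibrinogen-like protein of immune cells, had 472, 380 and 301 CPM in Amp+Beclo, 295, 237 and 359 CPM in Amp, 287, 222 and 267 CPM in Beclo and 90.4, 148 and 75.0 CPM in Control, and every treated sample lay above every Control sample.

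NCF1, the p47 subunit of the phagocyte NADPH oxidase, had 666, 526 and 308 CPM in Amp+Beclo, 279, 312 and 185 CPM in Amp, 309, 270 and 214 CPM in Beclo and 146, 192 and 118 CPM in Control. The lowest Amp+Beclo sample lay within the range of Amp and of Beclo. NCF1 is also on a neutrophil list, and the 5 other measured genes of that list, none at 0, summed to 155 to 222 CPM in Amp+Beclo, 114 to 182 CPM in Amp, 134 to 199 CPM in Beclo and 82.0 to 165 CPM in Control. The ranges of that sum overlapped between all groups, and its part in the result was not tested. The oxidase gene nox1 was low and scattered, with 2.34, 9.34 and 4.46 CPM in Amp+Beclo, 0.737, 2.43 and 16.8 CPM in Amp, 2.74, 1.42 and 0 CPM in Beclo and 0.750, 0.429 and 1.39 CPM in Control.

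The acute phase gene SAA2 had the largest mean of Amp minus Control of the 101, at 3.32 ± 2.23 log2 units (SD, n = 3). It had 1.05, 0.786 and 1.00 CPM in Amp+Beclo, 0.624, 11.5 and 5.02 CPM in Amp, 0.422, 0 and 0.0909 CPM in Beclo and 0.281, 0.172 and 0.163 CPM in Control. It met the rule because Amp replicate 1 lay less than 1 log2 unit above Control replicate 1, while in Amp replicates 2 and 3 it was higher than in any Amp+Beclo sample. The gvin1l2 and mxe genes belong to families of interferon-induced GTPases. Sequences within these families were not compared, so whether reads were divided between related genes is not known. Their means of Amp minus Control were -0.54 and -0.50 log2 units. The edgeR model described below gave them log2 changes of 1.98 and 1.49 for Amp+Beclo against Control. For Beclo against Control it gave 1.05 and 1.41.

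**Figure D4:**
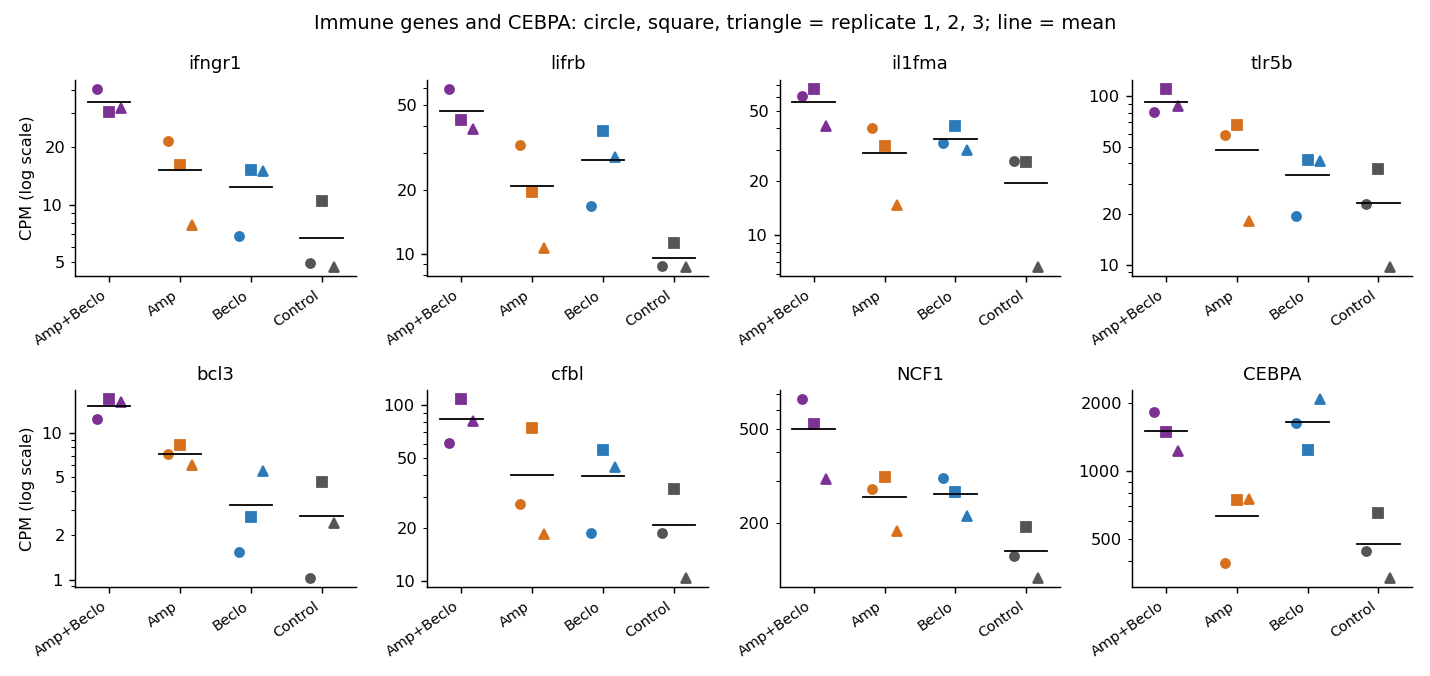
CPM on a log scale of 7 immune genes and CEBPA in the 12 samples, grouped as Amp+Beclo, Amp, Beclo and Control, with symbols for replicates 1, 2 and 3 and a line at each group's mean. The 3 Amp+Beclo samples lie above all others for ifngr1, lifrb, il1fma, tlr5b and bcl3, while for CEBPA the Beclo samples (1243 to 2085 CPM) overlap those of Amp+Beclo (1227 to 1832 CPM).

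G protein-coupled receptors described here number 4, of which 3 had a mean of Beclo minus Control above 1 and 0 had a mean of Amp minus Control above 1. OXER1, a receptor for the lipid mediator 5-oxo-ETE, had 20.0, 18.0 and 14.3 CPM in Amp+Beclo, 11.0, 8.12 and 3.06 CPM in Amp, 6.39, 13.6 and 12.8 CPM in Beclo and 5.76, 5.84 and 2.12 CPM in Control. Its Amp+Beclo samples were the 3 highest. The lysophosphatidic acid receptor LPAR6 had 14.1, 11.6 and 12.6 CPM in Amp+Beclo, 4.71, 2.09 and 1.47 CPM in Amp, 10.4, 18.0 and 18.8 CPM in Beclo and 6.33, 4.38 and 2.93 CPM in Control. In LPAR6 each Amp sample lay below the Control sample of the same number, and 2 Beclo samples lay above all Amp+Beclo samples. The cannabinoid receptor gene CNR2 also had a mean below 0 in Amp, at -0.22 log2 units, with 1.98 for Amp+Beclo and 1.83 for Beclo. The lysophosphatidic acid receptor gene lpar5b had 1.54 for Amp+Beclo, 0.69 for Amp and 0.89 for Beclo.

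Membrane transport gave 7 genes, with medians of 1.75 log2 units for Amp+Beclo, -0.06 for Amp and 0.80 for Beclo. The sodium-glucose cotransporter gene SLC5A1 had 5.80, 24.4 and 20.0 CPM in Amp+Beclo, 2.098, 1.39 and 15.9 CPM in Amp, 5.06, 16.0 and 4.18 CPM in Beclo and 2.39, 0.859 and 7.98 CPM in Control. Control replicate 3 of SLC5A1 was higher than Amp+Beclo replicate 1. The glucose transporter gene slc2a3b was steadier, with 29.4, 66.1 and 51.2 CPM in Amp+Beclo, 20.0, 25.7 and 25.0 CPM in Amp, 12.7, 26.4 and 32.8 CPM in Beclo and 14.5, 16.7 and 16.1 CPM in Control. SLCO2A1, a prostaglandin transporter, had 15.9, 16.0 and 23.8 CPM in Amp+Beclo, 5.56, 7.30 and 2.33 CPM in Amp, 12.6, 13.8 and 9.63 CPM in Beclo and 5.95, 5.92 and 8.72 CPM in Control, and its means were 1.41 log2 units in Amp+Beclo, -0.55 in Amp and 0.80 in Beclo. The monocarboxylate transporter gene slc5a8l had 3.46, 8.55 and 11.9 CPM in Amp+Beclo, 1.13, 1.04 and 5.51 CPM in Amp, 1.48, 7.21 and 0.454 CPM in Beclo and 1.22, 1.46 and 4.32 CPM in Control. The genes slc2a11a, slc22a7b.3 and KCNJ1 stayed at or under 5.09 CPM in every sample.

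Other metabolic genes numbered 8, and 5 of them had a mean of Beclo minus Control above 1. IRS2, an adaptor of the insulin receptor, had 29.2, 26.1 and 39.7 CPM in Amp+Beclo, 8.05, 2.09 and 4.28 CPM in Amp, 14.1, 33.2 and 31.6 CPM in Beclo and 9.28, 6.95 and 7.98 CPM in Control. Each Amp sample of IRS2 lay below its Control sample, with a mean of -0.91 ± 0.73 log2 units, and Amp+Beclo overlapped with Beclo only. GPT, the alanine aminotransferase that feeds glucose synthesis, had means of 1.99 log2 units in Amp+Beclo, 0.06 in Amp and 1.52 in Beclo. SIK2, a salt-inducible kinase that restrains CREB coactivators, was the most even, with 93.0, 89.4 and 91.5 CPM in Amp+Beclo, 40.8, 27.0 and 59.2 CPM in Amp, 61.9, 60.7 and 71.3 CPM in Beclo and 33.9, 29.6 and 33.9 CPM in Control. LPCAT2, which makes platelet-activating factor, had 401, 376 and 274 CPM in Amp+Beclo, 216, 343 and 119 CPM in Amp, 309, 299 and 219 CPM in Beclo and 137, 186 and 66.1 CPM in Control. NAMPT, of the NAD salvage pathway, and the lipid droplet hydrolase gene ldah followed Amp, with means of 0.98 and 1.15 log2 units in Amp and 0.14 and 0.18 in Beclo. LHPP and LRAT, the retinol acyltransferase, followed Beclo, with 1.39 and 1.71 in Beclo.

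CEBPA (ENSDARG00000036074), a transcription factor of myeloid and liver cells, was the most abundant of the 101 genes. It had 1832, 1488 and 1227 CPM in Amp+Beclo, 393, 744 and 756 CPM in Amp, 1644, 1243 and 2085 CPM in Beclo and 444, 653 and 338 CPM in Control. Every sample with beclomethasone lay above every sample without it, and the means were 1.70 ± 0.45 log2 units in Amp+Beclo, 0.39 ± 0.69 in Amp and 1.81 ± 0.85 in Beclo (SD, n = 3 each). CEBPA was left in by the rule because Beclo replicate 2 missed the limit. The light-responsive gene cry5, named here because it stood on a list of clock genes, had 4.51, 5.604 and 5.19 CPM in Amp+Beclo, 2.66, 0.927 and 5.26 CPM in Amp, 3.51, 3.35 and 6.09 CPM in Beclo and 1.83, 1.03 and 1.87 CPM in Control. A role of cry5 in the clock was not examined. MLX, the partner of sugar-sensing transcription factors, had means of 1.13 log2 units in Amp+Beclo, 0.38 in Amp and 0.46 in Beclo.

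A set of 4 genes was grouped as known from muscle. Whether genes placed in the other groups, among them glycogen metabolism, are also expressed in muscle was not examined. MYLK4 (ENSDARG00000091260), a myosin light chain kinase, had 9.99, 25.3 and 48.2 CPM in Amp+Beclo, 7.37, 1.39 and 6.85 CPM in Amp, 8.36, 27.7 and 17.2 CPM in Beclo and 4.26, 2.32 and 7.66 CPM in Control. A second identifier with this name (ENSDARG00000055412) was not a member. Its Amp+Beclo minus Control was 0.29 log2 units in replicate 1. ANKRD1, a stress-responsive protein of the sarcomere, had 11.4, 33.9 and 34.4 CPM in Amp+Beclo, 8.96, 3.13 and 10.3 CPM in Amp, 9.91, 21.5 and 19.2 CPM in Beclo and 3.84, 3.00 and 15.3 CPM in Control. The small heat shock gene HSPB3 and the muscle calpain gene CAPN3 had means of 1.38 and 1.19 log2 units in Amp+Beclo, 0.36 and -0.09 in Amp, and 1.48 and 0.33 in Beclo. The summed level of the muscle list given above reached its highest values in Amp, though its ranges overlapped between all groups. In Amp the means of these 4 genes lay between -0.09 and 0.36 log2 units from Control. None of the list's 10 genes passed the limit in every Amp+Beclo replicate, while 5 passed it in every Amp replicate. The part of muscle RNA in the values of these 4 genes, and of the members in other groups, was not tested.

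Adhesion, cytoskeleton and trafficking gave 7 genes. RAP1GAP, which switches off the adhesion GTPase RAP1, had 32.1, 75.3 and 60.7 CPM in Amp+Beclo, 13.5, 32.5 and 23.4 CPM in Amp, 9.56, 20.3 and 19.8 CPM in Beclo and 7.59, 9.19 and 8.39 CPM in Control. Its lowest Amp+Beclo sample lay just under Amp replicate 2. The gene of the filopodia-forming GTPase RHOF had 45.2, 32.1 and 26.0 CPM in Amp+Beclo, 21.3, 41.5 and 4.41 CPM in Amp, 13.9, 25.0 and 34.5 CPM in Beclo and 7.26, 9.53 and 2.53 CPM in Control. DAB2, an adaptor of endocytosis, had 221, 318 and 231 CPM in Amp+Beclo, 121, 56.9 and 44.1 CPM in Amp, 134, 207 and 159 CPM in Beclo and 91.4, 59.8 and 52.5 CPM in Control, and its Amp mean was 0.03 ± 0.34 log2 units against 1.31 ± 0.66 for Beclo (SD, n = 3 each). The membrane fusion gene snap23.2 followed Amp, with means of 1.59 log2 units in Amp+Beclo, 1.77 in Amp and 0.31 in Beclo. The genes afap1l1b, sema4e and lpxn (leupaxin, of adhesion sites) had Amp+Beclo means of 1.68, 1.60 and 1.22.

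Of the genes without a place in these groups, vwa11 exceeded its larger single change most, by 2.78 log2 units. It had 5.64, 8.46 and 5.55 CPM in Amp+Beclo, 2.04, 0.348 and 0.245 CPM in Amp, 0.843, 5.36 and 0 CPM in Beclo and 1.69, 2.66 and 0.652 CPM in Control. Its Amp+Beclo samples were the 3 highest, and its means in Amp and Beclo were both below 0, at -1.08 ± 1.37 and -0.75 ± 1.66 (SD, n = 3 each). The gene for the secreted glycoprotein STC2 had 7.41, 9.34 and 8.74 CPM in Amp+Beclo, 4.03, 1.04 and 1.22 CPM in Amp, 2.53, 4.94 and 2.82 CPM in Beclo and 2.72, 1.46 and 2.77 CPM in Control. The unnamed gene ENSDARG00000059741 had 59.2, 134 and 98.6 CPM in Amp+Beclo, 33.3, 27.6 and 19.8 CPM in Amp, 12.6, 38.3 and 27.6 CPM in Beclo and 24.2, 22.8 and 12.95 CPM in Control. In these 3 genes every Amp+Beclo sample lay above the other 9 samples, and neither single change had a mean above 0.53 log2 units. The gene si:ch73-90p23.1 had 94.7, 131 and 94.7 CPM in Amp+Beclo, 58.3, 55.1 and 40.3 CPM in Amp, 16.0, 38.05 and 16.6 CPM in Beclo and 12.2, 37.9 and 8.15 CPM in Control, with Amp as the nearer treatment.

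The rest of the genes with large changes were low. C1QL2, a secreted C1q-like protein, had 4.19, 3.64 and 3.64 CPM in Amp+Beclo, 2.15, 0.696 and 2.69 CPM in Amp, 0.773, 0.670 and 1.27 CPM in Beclo and 0.515, 0.601 and 0.163 CPM in Control. The unnamed gene ENSDARG00000088309 had 0 CPM in Amp replicates 2 and 3 and in Control replicate 2, and its second largest mean change, 2.95 log2 units, thus depends on the 2 counts added. ZDHHC23, a palmitoyltransferase, had 2.09, 3.74 and 6.01 CPM in Amp+Beclo, 0.794, 0.232 and 0.367 CPM in Amp, 2.25, 3.101 and 0.909 CPM in Beclo and 0.281, 0.515 and 1.14 CPM in Control. The genes b4galnt1a, which makes gangliosides, mslna (mesothelin) and cimap1b had means of 1.94, 1.47 and 2.23 log2 units in Amp+Beclo, 0.67, -1.13 and -0.01 in Amp, and -0.42, 0.22 and 1.95 in Beclo.

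The 101 genes were low expressed as a set. Their median Control level was 2.02 log2 CPM, against 3.42 over all measured genes, and the median SD of the 3 Control samples was 0.57 against 0.46 log2 units. Mean counts over the 12 samples ran from 10.3 to 12774.5, with 35 genes under 50 and 51 at 100 or more, and 10 genes had a zero in at least 1 sample.

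Of 26 lists of pathway and cell type genes, 4 held a member: tlr5b and ifngr1 stood on the list of innate receptors and sensors (14 genes measured), c7b on that of complement (13), NCF1 on that of neutrophil genes (6) and cry5 on that of clock genes (11). Lists were matched by gene symbol, so a list gene that the gene table names otherwise was missed. Under its listed symbols no member stood on the list of known glucocorticoid targets, of which 12 of 16 symbols were found. Of these 12 genes, 5 passed the limit in every Amp+Beclo replicate, 0 in every Amp replicate and 6 in every Beclo replicate. The rule leaves out genes that pass in every Beclo replicate, so nothing is read from the absence of these targets. The list of inflammatory wound genes had 11 of its 18 symbols found, and no member was among these 11. Of the 11, 0 passed in every Amp+Beclo replicate and 6 in every Amp replicate. That list holds the symbol saa, which does not match the name of the member SAA2, so the absence of members rests on names. Among the 20214 genes, 214 (1.06%) passed in every Amp+Beclo replicate, 117 (0.579%) in every Amp replicate and 170 (0.841%) in every Beclo replicate. Of the 214, 36 also passed in every Amp replicate, 88 in every Beclo replicate and 11 in both.

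A model across all genes was fitted to count how many of the 101 differed beyond the spread between replicates. In edgeR's quasi-likelihood test with the replicate experiment as a block, a gene was called higher at a Benjamini-Hochberg adjusted p below 0.05, with a fold above 2 for comparisons with Control. In Amp+Beclo against Control 17 members were called, of 83 of 22202 genes tested (0.374%). They were phka1b, C1QL2, si:ch73-90p23.1, RAP1GAP, bcl3, RHOF, ifngr1, ZDHHC23, B3GNT5, lifrb, ENSDARG00000059741, si:ch211-136m16.8, tlr5b, cfbl, GPT, IRS2 and c7b. In Amp against Control 14 of the 100 members tested were called, against 1.14% of all genes: si:ch73-90p23.1, RAP1GAP, bcl3, RHOF, nox1, si:ch211-264f5.2, FGL2, c7b, afap1l1b, SAA2, snap23.2, MAPK12, si:dkey-33c9.6 and FES. In Beclo against Control 0 of 100 were called, against 0.167% of all genes, with 52 at an unadjusted p under 0.05 (3.27% of all genes) and 19 called by DESeq2 (1.02%). The rule used these contrasts, so that nothing is read from the counts. By edgeR 5 members were called both in Amp+Beclo and in Amp, and 12 in Amp+Beclo against Control and in neither single comparison. The shares of all genes with these patterns were not computed and the rule bears on them, so nothing is read from these counts either.

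The number of calls against Control turned on single replicates, over all genes as well as among the members. The counts over all genes are given in the last section. Without replicate 1 of each group 45 members were called in Amp+Beclo against Control, without replicate 2 it was 78, and without replicate 3 it was 0. Without the replicate block 2 were called, and in Amp against Control 0. In Amp against Control the count was 17 without replicate 1, 4 without replicate 2 and 0 without replicate 3. In Beclo against Control it was 0 without replicate 1, 5 without replicate 2 and 2 without replicate 3. With DESeq2, 76 members were called in Amp+Beclo against Control (1.34% of all genes) and 15 in Amp against Control (2.50%). DESeq2 gave no adjusted p for 64 members in Amp against Control, and for 0 in Amp+Beclo against Control. Those 64 could not be called, so the counts of 76 and 15 are not comparable.

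Amp+Beclo was also set against each single treatment. The rule had chosen the members on the same samples, so the counts are a description and nothing is read from them. In Amp+Beclo against Amp 8 members were called higher, against 0.258% of all genes: phka1b, ppp1r3ab, MYLK4, si:ch211-136m16.8, vwa11, IRS2, gvin1l2 and slc22a7b.3. None was called when any replicate was left out, and 0 without the block. DESeq2 called 11 members (0.340% of all genes) and gave no adjusted p for 2. In Amp+Beclo against Beclo 0 members were called, against 0.0046% of all genes, with 43 at an unadjusted p under 0.05 (5.90% of all genes) and 16 called by DESeq2 (0.442%). DESeq2 gave no adjusted p for 22 members in this comparison. Without replicate 3 edgeR called 6 members. The interaction of amputation and beclomethasone, which asks whether the combined change exceeds the sum of the single changes, was called in 0 members and 0% of 21979 genes, with 4 members at an unadjusted p under 0.05 (4.30% of all genes) and 0 called by DESeq2. The median interaction was -0.01 log2 units in the members, against 0.12 over all genes tested. Across the members it ran from -2.25 for SAA2 to 3.06 for vwa11. Of the 17 members called against Control, phka1b, si:ch211-136m16.8 and IRS2 were among the 8 called against Amp.

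To read the pattern in samples that had not chosen the genes, the rule was applied to 2 replicates and the genes were read in the third. With replicate 1 left out 230 genes were chosen, and 71 of them (30.9%) lay more than 1 log2 unit above Control in Amp+Beclo replicate 1, against 4.07% of all genes. With replicate 2 left out it was 77 of 176 (43.8%, against 16.5%), and with replicate 3 left out 72 of 135 (53.3%, against 6.76%). The same genes were also often above the limit in the single treatments of the left-out replicate. In Amp it was 17.8%, 23.9% and 26.7% for replicates 1, 2 and 3, against 2.66%, 14.4% and 12.9% of all genes, and in Beclo 22.2%, 33.5% and 43.7%, against 5.43%, 9.50% and 9.75%. The 3 differences of a left-out replicate share 1 Control sample, so that a low Control value raises all of them together.

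The treated samples of the left-out replicate were also compared with each other, without Control. Amp+Beclo lay above Amp in 63.9%, 73.9% and 69.6% of the chosen genes in replicates 1, 2 and 3, against 52.2%, 54.5% and 54.1% of all genes. Amp+Beclo lay above Beclo in 72.6%, 60.8% and 67.4%, against 50.8%, 49.2% and 48.2%. It lay above both in 48.7%, 40.9% and 51.1%, against 29.7%, 33.0% and 34.99%. Here too all genes were not matched for level or spread, so these shares are a description.

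**Figure D5:**
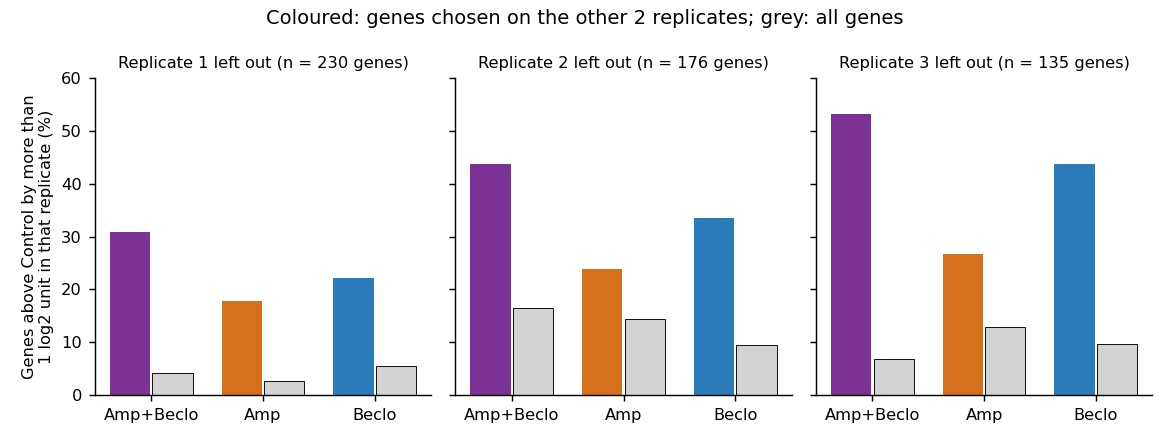
Share of genes (vertical axis, percent) more than 1 log2 unit above Control in the replicate left out, for Amp+Beclo, Amp and Beclo, with 1 panel per replicate. Coloured bars are genes chosen by the rule on the other 2 replicates and grey bars are all 20214 genes; the Amp+Beclo bars reach 30.9%, 43.8% and 53.3%, and the Beclo bars 22.2%, 33.5% and 43.7%.

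Genes at the edge of the rule differed little in their lowest Amp+Beclo minus Control, though they differed in their single changes. Just inside lay slc2a11a, with a lowest Amp+Beclo minus Control of 1.005 log2 units, si:dkey-33c9.6 with 1.006 and KCNJ1 with 1.010, and just outside lay cyp27a3 with 0.9996, CFAP43 with 0.999 and si:dkey-73p2.2 with 0.995. KCNJ1 had means of 1.40 log2 units in Amp and 0.18 in Beclo, against 1.08 in Amp+Beclo. CFAP43 had -0.94 in Amp and -1.09 in Beclo, against 1.24 in Amp+Beclo. Membership depended most on how Control was used. When each sample was set against the mean of the 3 Control samples, in place of the Control sample of its own replicate number, 111 genes met the rule and 48 of the 101 were among them.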

How the data were processed

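The authors deposited 1 table of raw read counts per gene for each of the 12 samples. Per the submitters' processing notes these involved TopHat2 2.1.0, GRCz10 and DESeq 1.26.0, and the program that counted reads and its use of strand are not given in the sources used here. Actinomycin D was present from dissociation on to stop transcription, and the libraries (SMART-seq) hold no molecular identifiers, so that counts include PCR copies. Rows that name no gene, which held 6.84% to 14.5% of a sample's reads, were left out of totals. The members, lists and tests were chosen with earlier results of these data known, and the wider glycogen list and the groups by function after the members' values were seen. The named genes were the 12 largest Amp+Beclo changes, the 10 largest excesses over the larger single change, the 6 highest Control levels, the 6 largest Amp and Beclo changes, genes at the limit and members of lists; other names were chosen after their values were seen. Members with no name were limited to 2 identifiers.

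Counts were scaled by TMM in edgeR 4.0.16 (R 4.3.3) and log2 CPM took a prior count of 2. Tests were edgeR's quasi-likelihood test on genes with at least 30 counts over the 6 samples compared (60 over 12 for the interaction), with DESeq2 1.42.0 as an alternative. They were run on simulated counts in which samples of the same replicate number shared a deviation. The real samples did not all show such sharing, so the simulation does not measure how the tests perform here. Replicate numbers come from the study's 3 replicate experiments. Deviations from group means correlated at 0.50 to 0.68 between same-numbered Amp and Control samples. The correlations were -0.42 to 0.49 between Amp+Beclo and Control and -0.07 to 0.18 between Beclo and Control. Alternatives were no block, another normalization, other filters and prior counts, the mean Control and leaving out each replicate. Sequences and coordinates were not analysed here. The values of 1 member are not reported here.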

Additional observations from a re-analysis of the deposited data

How the results depend on the processing

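The number of genes meeting the rule was 107 with a prior count of 0.5, 88 with 5, 96 with RLE normalization, 114 without a filter, 69 with a mean count of at least 50 and 111 with the mean Control, and 135 to 230 without 1 replicate, where fewer samples must pass. Members called in Amp+Beclo against Control (17) became 2 with no replicate block, 76 with DESeq2, 36 with RLE, 67 without a filter and 0 to 78 without 1 replicate. In Amp+Beclo against Amp 8 became 0 with no replicate block, 2 with at least 10 counts in every sample and 0 to 0 without 1 replicate. In Amp+Beclo against Beclo 0 became 16 with DESeq2, 6 without a filter, 4 with at least 10 counts in every sample and 0 to 6 without 1 replicate. In Amp against Control 14 became 0 with no replicate block and 0 to 17 without 1 replicate. In Beclo against Control 0 became 19 with DESeq2, 4 without a filter, 4 with at least 10 counts in every sample and 0 to 5 without 1 replicate. The interaction stayed at 0 members under each alternative run. The causes were not tested. The mean Amp+Beclo change of 10 genes moved by over 1 SD with a prior count of 0.5 and of 12 with 5, and none reversed. Leaving out the replicate block changed the members called in the 3 comparisons named and in no other.

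Over all genes, calls in Amp+Beclo against Control (83) became 27 with no replicate block, 297 with DESeq2, 214 without a filter and 33 to 435 without 1 replicate. For Amp+Beclo against Amp 56 became 2 with no replicate block, 20 with at least 10 counts in every sample and 1 to 12 without 1 replicate. For Amp+Beclo against Beclo 1 became 0 with no replicate block and with RLE, 96 with DESeq2, 17 without a filter, 14 with at least 10 counts and 0 to 28 without 1 replicate. For Amp against Control 251 became 0 with no replicate block, 553 with DESeq2 and 2 to 910 without 1 replicate. In Beclo against Control 37 became 226 with DESeq2, 59 with RLE, 129 without a filter, 113 with at least 10 counts and 2 to 116 without 1 replicate. The interaction had 0 calls, and 1 with DESeq2. Of the members, 35 had a mean count under 50.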
